A study of Bos taurus with 23 samples.

Results

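ZP2, ZP3 and ZP4 encode the glycoproteins of the zona pellucida. They were taken as every probe set whose platform gene symbol was one of these 3 names. Each gene (NCBI gene 280963 for ZP2, 280964 for ZP3 and 280965 for ZP4) had 1 probe set, so the set held 3 of the 9155 genes named by a single symbol. All 3 were bright enough to be tested.

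The measurements came from 23 bovine GeneChip arrays in 8 groups that followed oocytes and embryos to the blastocyst. Each array was hybridised with the poly(A) RNA of a pool of oocytes or embryos, so a value was a relative level of polyadenylated message, and fewer transcripts and shorter poly(A) tails cannot be told apart, nor can fewer cells of a type and less RNA per cell. Values are on the log2 scale, where a difference of 1 is a doubling, and a value below 4 was taken as background. Replicates are labelled as biological, but no label ties a pool to its animals, so the p-values measure the spread between pooled samples.

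The in vitro oocyte group had 3 arrays; the labels give its oocytes as cultured, without the conditions. The in vivo oocyte group also had 3 arrays, of oocytes matured in the cow and taken from preovulatory follicles of 9 animals at estrus, day 0. Zygotes (3 arrays), 2-cell embryos (2 arrays), 4-cell embryos (2 arrays) and 8-cell embryos (4 arrays) were flushed from the oviducts of 24 cows 1 to 4 days after insemination. The study design describes the 8-cell pools as embryos of 8 to 16 cells. Morulae (3 arrays) and blastocysts (3 arrays) were flushed from the uterus of 7 animals on day 7 or 8. Pools held 10 embryos, or 5 in the case of blastocysts. The semen of 1 Holstein-Friesian bull was used for all inseminations. The labels give no strain, genotype or treatment that separates the groups.

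The zona pellucida is the extracellular coat of the mammalian egg. Growing oocytes secrete its glycoproteins, which assemble into filaments through a shared ZP domain. The coat binds sperm, hardens after fertilisation when the protease ovastacin cleaves ZP2, and surrounds the embryo until hatching from the blastocyst stage on. In cattle it is built of ZP2, ZP3 and ZP4. No protein was measured here.

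Between arrays the medians over all probe sets lay between 3.28 and 3.60, and 43.3 to 47.0% of probe sets were over 4. Markers of other cells were present on some arrays. The in vivo oocyte array 2 had 13 of 20 cumulus and granulosa cell markers over 4, and 4-cell array 1 had 8 of 11 blood and leukocyte markers over 4. Lactotransferrin (LTF), a secretory product of uterine epithelium and leukocytes, read 13.86 on 2-cell array 1, 13.18 on blastocyst array 1 and 10.94 on 8-cell array 3. The 8-cell arrays also carried haemoglobin beta (HBB), at 7.07 to 10.79, and the morula arrays carried it at 4.45 to 9.89. Haemoglobin alpha (HBA), on the same marker list, was below 4 on every array, and the source of the HBB message was not tested. Arrays 1 and 4 of the 8-cell group carried the epithelial keratin KRT18 and the oviductal glycoprotein OVGP1. SERPINA14, a uterine secretory protein, read 10.57 on in vitro oocyte array 3. The zona comparisons were run without each array in turn and without in vivo oocyte 2, 2-cell 1, 4-cell 1 and blastocyst 1 together.

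ZP2, ZP3 and ZP4 messages were abundant from the oocyte to the 4-cell embryo, fell at the 8-cell stage and fell again by the morula. From the 4-cell to the 8-cell stage ZP2 fell 27.3-fold, ZP4 13.8-fold and ZP3 5.58-fold. In morulae ZP2 and ZP4 were below background on every array, while ZP3 was above it on 2 of 3 arrays. In blastocysts all 3 genes were below 4 on every array.

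**Figure D1:**
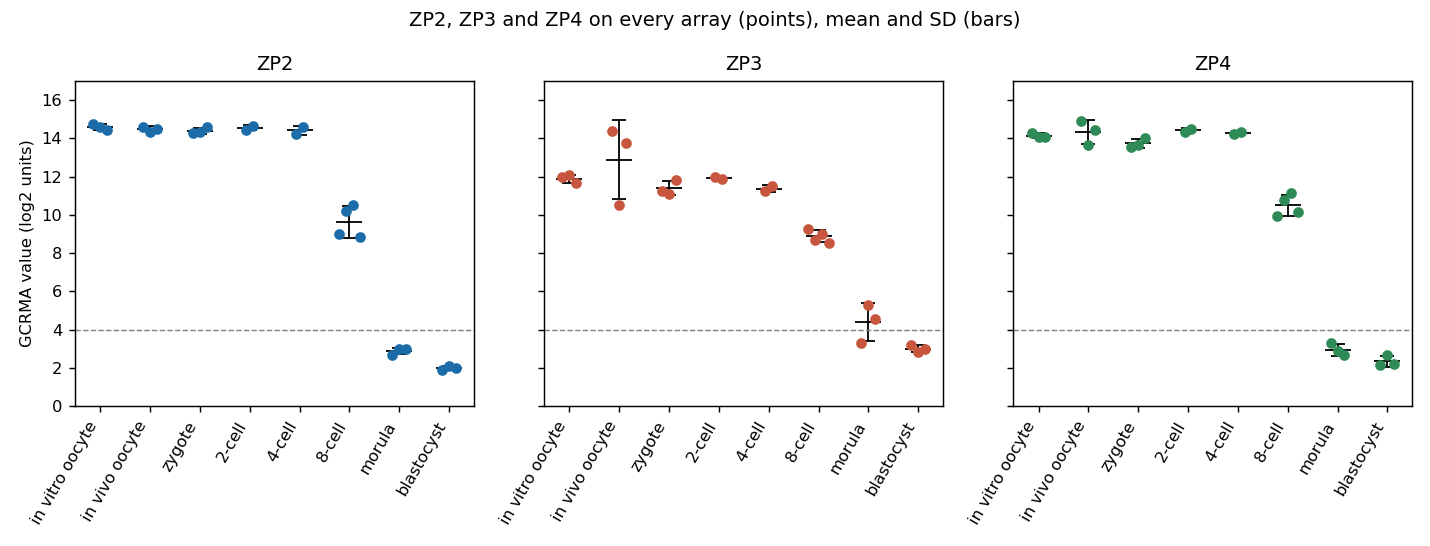
GCRMA value in log2 units (vertical axis) of ZP2, ZP3 and ZP4, a panel each, in the 8 groups (horizontal axis); points are arrays, black bars are the group mean and SD, and the dashed line is the background level of 4. ZP2 stays between 14.25 and 14.73 from oocyte to 4-cell embryo, ZP3 spreads from 10.52 to 14.40 there, and all 3 genes step down at the 8-cell stage and at the morula.

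ZP2, the glycoprotein whose N-terminal region is cleaved after fertilisation, had log2 values of 14.73, 14.60 and 14.43 in in vitro oocytes and 14.62, 14.36 and 14.51 in in vivo oocytes. The zygote arrays read 14.29, 14.33 and 14.58, the 2-cell arrays 14.46 and 14.66, and the 4-cell arrays 14.25 and 14.60. These 5 groups overlapped, and no neighbours in the order of their means (in vitro oocyte, 2-cell, in vivo oocyte, 4-cell, zygote) were separated. The 8-cell arrays read 9.02, 10.23, 10.50 and 8.84, all below every earlier array. ZP2 was 2.70, 2.97 and 2.97 in morulae and 1.89, 2.11 and 2.00 in blastocysts. The 8-cell, morula and blastocyst groups did not overlap, although the last pair lay below background.

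ZP3, which pairs with ZP2 in the zona filament, had log2 values of 11.96, 12.07 and 11.66 in in vitro oocytes and 14.40, 10.52 and 13.75 in in vivo oocytes. Zygotes read 11.27, 11.10 and 11.81, 2-cell embryos 11.98 and 11.86, and 4-cell embryos 11.23 and 11.50. The in vivo oocytes thus held both the highest and the lowest value of all arrays up to the 4-cell stage. In the order of means (in vivo oocyte, 2-cell, in vitro oocyte, zygote, 4-cell) all neighbours overlapped. The 8-cell arrays read 9.29, 8.71, 8.99 and 8.55, a narrow group below every earlier array. Morulae read 3.33, 5.29 and 4.56 and blastocysts 3.20, 2.83 and 3.01. ZP3 was the one member above background in any morula, on arrays 2 and 3.

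ZP4, a close relative of the filament cross-linker ZP1, had log2 values of 14.28, 14.09 and 14.09 in in vitro oocytes and 14.91, 13.67 and 14.44 in in vivo oocytes. Zygotes read 13.58, 13.64 and 14.01, 2-cell embryos 14.35 and 14.49, and 4-cell embryos 14.21 and 14.35. The zygotes had the lowest mean of these 5 groups, 13.74, and overlapped the in vivo oocytes only through array 2 of that group, at 13.67. Every zygote array lay below every in vitro oocyte, 2-cell and 4-cell array. The share of all probe sets with that order was not computed. The 8-cell arrays read 9.93, 10.79, 11.13 and 10.13. Morulae read 3.29, 2.86 and 2.70 and blastocysts 2.16, 2.69 and 2.23, all below background. ZP1 was not analysed here.

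The first question was whether the zona messages changed between the oocyte and the 4-cell stage. Over the 13 arrays from oocyte to 4-cell embryo, in vitro oocytes included, ZP2 spanned 0.48 on the log2 scale. Of the 8830 probe sets over 4 on all 13 arrays, 1.42% had a smaller range, and their median range was 1.96. ZP4 spanned 1.34, with 24.2% of those probe sets below it, and ZP3 spanned 3.88, with 91.9% below it. The ZP3 range was that of the in vivo oocytes. Without in vivo oocyte array 2 it was 3.31, with 86.1% of 8896 probe sets below it, and without all 3 in vivo oocyte arrays it was 0.97, with 17.8% of 9009 probe sets below it. ZP2 was thus steady over all arrays of this window, and ZP3 was so outside the in vivo oocytes. The ranking was not matched for brightness. Among other bright oocyte genes, KPNA7 read 15.41 to 15.80 and MOS 13.39 to 13.75 over these arrays, while GDF9, BMP15, NLRP5, OOEP and GTSF1 spanned more.

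No member passed limma's test, at an adjusted p of 0.05 over all 14571 probe sets tested, in any of the 3 steps from in vivo oocyte to 4-cell embryo. From in vivo oocyte to zygote the log2 differences were -0.10 for ZP2, -1.50 for ZP3 (95% interval -2.88 to -0.12, adjusted p 0.330) and -0.60 for ZP4 (-1.27 to 0.08, adjusted p 0.510). In that step 2.94% of probe sets were called, and 1 of the 3 members, ZP3, had an unadjusted p under 0.05, as had 12.4% of all tested probe sets. From zygote to 2-cell embryo the differences were 0.16 for ZP2 (adjusted p 0.994), 0.53 for ZP3 (0.860) and 0.68 for ZP4 (0.354), with 3.20% of probe sets called and no member at an unadjusted p under 0.05. Both 2-cell arrays lay above all 3 zygote arrays for ZP3 and ZP4; 19.7% of tested probe sets were separated in that direction. From 2-cell to 4-cell embryo the differences were -0.14, -0.55 and -0.14 for ZP2, ZP3 and ZP4, each with an adjusted p of 1.0. Here 0.0137% of probe sets were called, and no member had an unadjusted p under 0.05. Both 4-cell arrays lay below both 2-cell arrays for ZP3, as for 11.9% of tested probe sets.

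Oocytes cultured in vitro were compared with oocytes matured in vivo to ask whether the source of the egg mattered. ZP2 differed by 0.09 on the log2 scale (95% interval -0.61 to 0.78, adjusted p 0.995) and ZP4 by -0.19 (-0.87 to 0.49, adjusted p 0.896), in vitro minus in vivo. ZP3 differed by -0.99 (-2.37 to 0.38, adjusted p 0.451). No member passed limma's test or had an unadjusted p under 0.05, and 8.54% of probe sets were called.

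The ZP3 comparisons depended on 1 library, in vivo oocyte array 2. Without it, ZP3 was lower in in vitro than in in vivo oocytes by a log2 difference of -2.18 (adjusted p 0.000951) and lower in zygotes by -2.68 (adjusted p 0.000457). In those fits 13.4% and 5.21% of 14549 probe sets were called lower. ZP2 and ZP4 passed in neither comparison without that array. Leaving out in vivo oocyte array 1 instead gave -0.24 and -0.74 for ZP3.

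In vivo oocyte array 2 stood 3.23 below the nearer of the other arrays of its group for ZP3, 0.77 below for ZP4 and 0.15 below for ZP2. Of all tested probe sets, 31.2% were lowest on that array, and 1.41% (205) by at least the gap of ZP3. Among 7 oocyte-specific and maternal-effect genes on the array, 4 were lowest there. NLRP5, a subunit of the subcortical maternal complex, was 2.92 lower and GTSF1, a factor in small-RNA silencing, 2.76 lower. GDF9, the oocyte growth factor, was 1.08 lower, and OOEP, another subunit of that complex, 0.04 lower. BMP15, KPNA7 and MOS were not lowest there.

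The same array had the most cumulus and granulosa cell markers, 13 of 20 over 4, against 5 and 7 on the other in vivo oocyte arrays and 7 to 9 on the in vitro oocyte arrays. The summed linear level of the list was 18630 on it, against 12601 and 14537 on arrays 1 and 3 and 10950 to 11301 in in vitro oocytes. Most of each sum was the listed gene STAR, at 13.55 to 13.71 in in vivo and 13.15 to 13.32 in in vitro oocytes. The steroid enzyme HSD17B1 read 11.03 there, the inhibin subunit INHA 10.95 and the activin-binding protein FST 9.32. The defining markers FSHR, LHCGR, AMH, FOXL2 and NR5A1 were below 4 on all 23 arrays. The part of these markers in the ZP3 value was not tested.

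The fall at the 8-cell stage was then measured against 4-cell embryos. All 3 members passed limma's test, where 33.6% of all tested probe sets were called lower and 29.8% higher. ZP2 fell from a mean of 14.42 ± 0.25 (SD, n = 2) to 9.65 ± 0.84 (SD, n = 4), a log2 difference of -4.77 (SE 0.35, adjusted p 6.89e-10). The fold of 27.3 had a 95% interval of 16.4 to 45.5. ZP4 fell from 14.28 ± 0.10 to 10.49 ± 0.56, a difference of -3.79 (SE 0.34, adjusted p 1.18e-08) with a fold interval of 8.38 to 22.7. ZP3 fell from 11.37 ± 0.19 to 8.88 ± 0.32, a difference of -2.48 (SE 0.70, adjusted p 0.00428) with a fold interval of 2.03 to 15.4. Every 8-cell array lay below both 4-cell arrays for all 3 genes, as did 36.4% of tested probe sets, and each fall was larger than the range within either group.

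Set against the whole array, 4.63% of tested probe sets fell at least as much as ZP2 at this step, 9.60% as much as ZP4 and 19.5% as much as ZP3. The median over all tested probe sets was -0.03. These percentages were not matched for brightness either, and a probe set that starts dim has less room to fall. Without in vivo oocyte 2, 2-cell 1, 4-cell 1 and blastocyst 1 the differences were -4.95 for ZP2, -3.86 for ZP4 and -2.61 for ZP3. A lone 4-cell array is left in that fit, so only the sizes are given. All 8-cell arrays stay in that fit, with the markers named above. In an alternative added after the data were seen, without 8-cell arrays 1 and 4, they were -4.05 for ZP2, -3.32 for ZP4 and -2.51 for ZP3 (adjusted p 0.0151), and all passed.

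**Figure D2:**
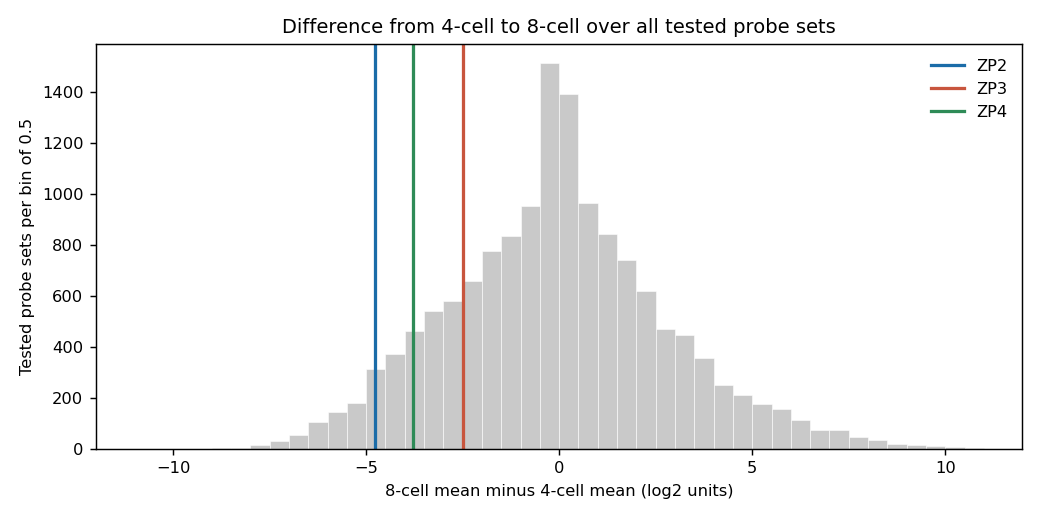
Histogram of the log2 difference, 8-cell minus 4-cell, over all 14571 tested probe sets (horizontal axis, log2; vertical axis, number of probe sets), with vertical lines at the 3 zona genes. ZP2 at -4.77, ZP4 at -3.79 and ZP3 at -2.48 lie on the lower side, where 4.63, 9.60 and 19.5% of probe sets fell as much or more. The probe sets are not matched for brightness.

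The members did not fall by the same amount. In an alternative added after the data were seen, the 7 zygote, 2-cell and 4-cell arrays were set against the 4 8-cell arrays. The difference between ZP2 and ZP3 on an array changed by -2.15, that between ZP2 and ZP4 by -1.20 and that between ZP3 and ZP4 by 0.95. Each pair gave a two-sided exact permutation p of 0.003, also after adjustment over the 3 pairs, which is the smallest that 330 splits allow. By these means ZP2 fell most at this boundary, ZP4 less and ZP3 least. The step between ZP3 and ZP4 was the least firm. Without 8-cell array 1 it was 0.62, with an exact permutation p of 0.017, where the smallest possible was 0.0083.

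Over the wider window the mean differences had the same order, but ZP2 and ZP4 were below background on every morula and blastocyst array. The size of each fall there depends on the starting level, with early means of 14.46 for ZP2, 14.17 for ZP4 and 11.94 for ZP3. This window therefore cannot tell which message fell most. Across the 10 arrays from in vivo oocyte to 4-cell embryo and the 10 arrays from 8-cell embryo to blastocyst, the mean log2 differences were -9.14 for ZP2, -8.38 for ZP4 and -6.17 for ZP3. Each had a two-sided exact permutation p of 1.1e-05, the smallest of 184756 splits. The changes in the within-array differences were -2.97 for ZP2 minus ZP3 (exact p 0.00015, 0.00045 adjusted over 3 pairs), -0.77 for ZP2 minus ZP4 (exact p 0.0007, adjusted 0.0011) and 2.21 for ZP3 minus ZP4 (exact p 0.0018, adjusted 0.0018). Values below background take part in these means. With values below 4 set to 4 the differences were -8.20 for ZP2, -7.57 for ZP4 and -5.80 for ZP3, and these are lower bounds of the falls. On that scale the within-array differences changed by -2.40 for ZP2 minus ZP3, -0.64 for ZP2 minus ZP4 and 1.76 for ZP3 minus ZP4. The boundary between the windows was known from earlier results of these data, so these p-values are no independent support for it.

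**Figure D3:**
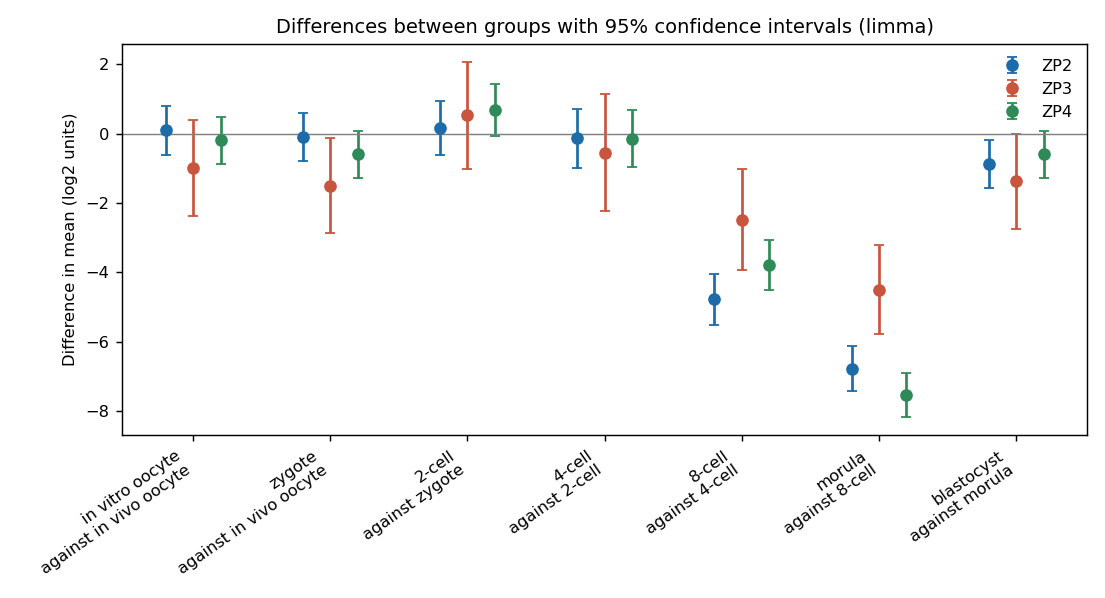
Difference in group means in log2 units with its 95% interval from limma (vertical axis) for ZP2, ZP3 and ZP4 in the 7 comparisons other than blastocyst against in vivo oocyte (horizontal axis). The comparisons in which all 3 genes passed are 8-cell against 4-cell (-4.77, -2.48 and -3.79) and morula against 8-cell (-6.77, -4.49 and -7.54).

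The 4 8-cell arrays were not alike. ZP2 averaged 8.93 on arrays 1 and 4 and 10.37 on arrays 2 and 3, and ZP4 averaged 10.03 and 10.96 on the same pairs, with no overlap in either gene. ZP3 did not follow the split, at 8.92 and 8.85. Of all tested probe sets, 35.2% (5123) were lower on both arrays 1 and 4 than on arrays 2 and 3.

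The same split held for 6 of 7 oocyte-specific and maternal-effect genes. MOS, the kinase that holds the egg in meiotic arrest, averaged 6.53 on arrays 1 and 4 and 10.68 on arrays 2 and 3. BMP15, an oocyte growth factor of the GDF9 family, averaged 7.24 and 11.10. KPNA7, an importin of oocytes and early embryos, averaged 9.77 and 13.31. NLRP5, like ZP3, did not follow the split. The labels give no cell number for each pool within the range of 8 to 16 cells. Its part in these differences was not tested. The gap between the 3′ and 5′ GAPD control probe sets, a sign of RNA integrity, was 3.80, 3.46, 2.53 and 4.14 on 8-cell arrays 1 to 4. It was thus widest on array 4 and next widest on array 1. Some markers of other cells followed the split. On arrays 1 to 4 KRT18 read 8.61, 2.37, 2.15 and 8.40, HBB 10.79, 7.07, 7.29 and 10.54, and OVGP1 7.96, 3.63, 3.01 and 7.62. Others of their lists did not: LTF was high on array 3, at 10.94, and KRT8 and HBA were below 4 on all 4 arrays. The 8-cell arrays had 0 or 1 of 5 trophoblast markers over 4. They had 0 or 1 of 7 oviduct and uterine epithelium markers and 2 of 11 blood and leukocyte markers over 4. The part of these measures in the split was not tested.

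**Figure D4:**
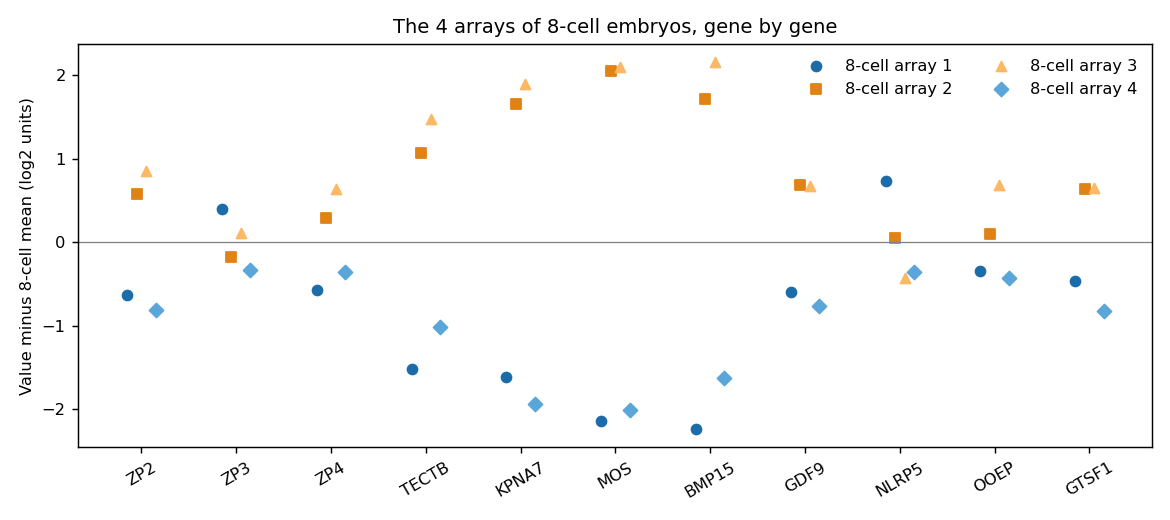
Value of each gene on the 4 8-cell arrays minus that gene's 8-cell mean in log2 units (vertical axis), for the zona genes, TECTB and 7 oocyte genes (horizontal axis), with a symbol and colour for each array. Arrays 1 and 4 lie below arrays 2 and 3 for every gene drawn except ZP3 and NLRP5.

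Morulae were compared with 8-cell embryos. All 3 members fell, at a step where 28.5% of probe sets were called lower. The log2 difference was -6.77 for ZP2 (adjusted p 1.45e-12), -7.54 for ZP4 (adjusted p 2.41e-13) and -4.49 for ZP3 (adjusted p 3.95e-06). As the genes reached background, the folds are lower bounds, computed against the level of 4 in any array below it. They were at least 50.2-fold for ZP2, at least 90.1-fold for ZP4 and at least 19.3-fold for ZP3. No morula array reached any 8-cell array for the 3 genes, a separation that 26.8% of tested probe sets shared.

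Blastocysts were compared with morulae, where 8.96% of probe sets were called and no member passed limma's test. The log2 differences were -0.88 for ZP2 (adjusted p 0.117), -1.38 for ZP3 (adjusted p 0.241) and -0.59 for ZP4 (adjusted p 0.331), and 2 of the 3 had an unadjusted p under 0.05, as had 20.7% of all tested probe sets. ZP2 and ZP4 were below background in both groups, so their differences carry no fold. All blastocyst arrays lay below all morula arrays for the 3 genes, as for 21.5% of tested probe sets. With the spread taken from the arrays of these 2 groups alone, the ZP2 difference of -0.88 had an adjusted p of 0.0284.

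From in vivo oocyte to blastocyst the falls were at least 1445-fold for ZP2, at least 1296-fold for ZP4 and at least 475-fold for ZP3. The log2 differences were -12.50, -11.98 and -9.88, with adjusted p-values of 6.6e-16, 7.19e-16 and 1.1e-10. In this comparison 32.4% of probe sets were called lower. All blastocyst arrays lay below all in vivo oocyte arrays for the 3 genes, as for 35.2% of tested probe sets.

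How the members moved together was described by correlation across arrays. Over all 23 arrays, which share the stage series, Pearson's r was 0.995 for ZP2 with ZP4, 0.975 for ZP3 with ZP4 and 0.972 for ZP2 with ZP3. Within the 13 arrays up to the 4-cell stage, r was 0.63 for ZP2 with ZP4 (Spearman 0.65), 0.79 for ZP3 with ZP4 (0.70) and 0.49 for ZP2 with ZP3 (0.69). Leaving out the 2 arrays farthest from the median of the first gene gave 0.66, 0.68 and 0.42. These arrays share a normalisation and, within a group, a stage.

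The genes most like each member were taken by Pearson's r over the 23 arrays among 9016 named probe sets. For ZP2 they were RGS16 (0.998), a regulator of G-protein signalling, PRSS2 (0.997), annotated as a trypsin, TECTB (0.996), ZP4 (0.995) and CNOT6L (0.995), a deadenylase that shortens poly(A) tails. RGS16 had a mean of 14.86 in in vivo oocytes, 9.72 at the 8-cell stage and 2.52 in morulae. For ZP4 they were ZP2, PRSS2 (0.994), ARMC2 (0.993), KPNA7 (0.993) and PHYHIPL (0.992). For ZP3 they were C23H6orf89 (0.977), ZP4, ZP2, GSTM3 (0.970) and AURKA (0.970), a mitotic kinase. ZP3 itself ranked only 92nd among the genes like ZP2 and 55th among those like ZP4.

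Other proteins with a ZP domain were read from a list of 10 genes, of which 6 matched a named probe set and 3 were tested. From the 4-cell to the 8-cell stage 2 fell and none rose, where 33.6% of all tested probe sets fell. TECTB, beta-tectorin, known from the tectorial membrane of the inner ear, averaged 13.05 in in vivo oocytes and 13.59 at the 4-cell stage. It fell 36.6-fold to 8.39 at the 8-cell stage (adjusted p 1.52e-07) and at least 21.0-fold to 2.31 in morulae (adjusted p 4.51e-09). OIT3, a ZP-domain protein known from liver, fell at least 3.99-fold at the 8-cell stage, from 5.99 to 2.96 (adjusted p 5.54e-05). GP2 passed in no step. UMOD, DMBT1 and ENG were below 4 on every array.

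Proteins of the egg surface and of zona processing were read from a list of 14 genes, of which 8 matched and 6 were tested. At the 8-cell stage 4 of the 6 fell and none rose, with a median difference of -1.44, where 33.6% of all tested probe sets fell. In morulae, unlike the zona genes, 4 of the 6 rose and 1 fell, where 27.0% of all tested probe sets rose. CD81, a tetraspanin of the egg membrane, fell at least 29.3-fold from 9.58 to 3.99 (adjusted p 5.67e-06) and rose at least 75.8-fold to 10.95 in morulae (adjusted p 9.26e-08). CD9, the tetraspanin needed for sperm-egg fusion, rose 25.1-fold from 9.72 to 14.36 in morulae (adjusted p 5.39e-06). Its difference of -1.42 at the 8-cell stage did not pass (adjusted p 0.102) and rested on 4-cell array 1, at 12.80 against 9.47 on array 2. Without the 4 arrays named above it was 0.25, with a lone 4-cell array left in the fit.

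ITGB1, the integrin beta subunit of the egg membrane, fell already between zygote and 2-cell embryo, from 14.08 to 12.19 (3.69-fold, adjusted p 0.000212), where 1.82% of all tested probe sets fell. It fell again from 11.78 to 10.33 at the 8-cell stage (2.74-fold, adjusted p 1.02e-05) and rose 7.58-fold to 13.25 in morulae (adjusted p 2.28e-10). FURIN, a proprotein convertase of the class that trims zona proteins before secretion, fell 1.90-fold at the 8-cell stage, from 5.56 to 4.63 (adjusted p 0.0175), and rose 1.63-fold to 5.34 in morulae (adjusted p 0.0427). Without the 4 arrays the FURIN rise in morulae did not pass (adjusted p 0.0616), which left 3 genes of the list rising there. A lone 4-cell array stays in that fit, so the FURIN fall at the 8-cell stage is given no call without the 4 arrays. UCHL1, a deubiquitinase of the oocyte cortex, was the member of this list that fell at both steps. It fell 6.38-fold from 11.77 to 9.10 (adjusted p 1.33e-05) and at least 34.3-fold to 3.18 (adjusted p 8.21e-11), then rose at least 2.84-fold to 5.50 in blastocysts (adjusted p 0.00063). PLAT, the tissue plasminogen activator, passed in no step between neighbouring stages, and FETUB, the inhibitor of ovastacin, was below 4 on every array.

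**Figure D5:**
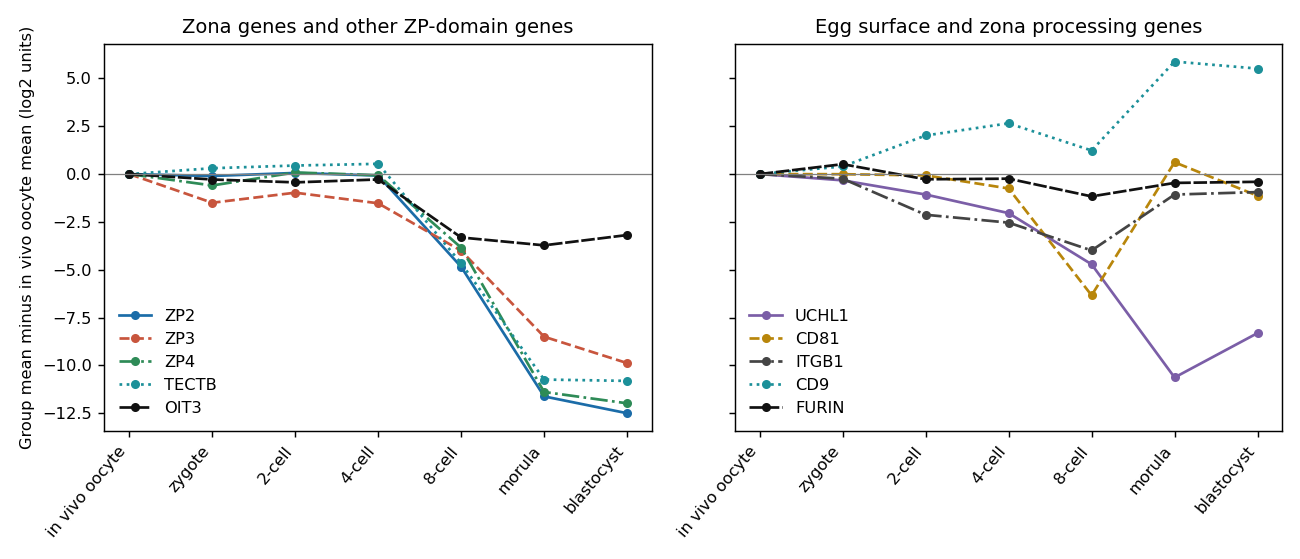
Group mean minus the in vivo oocyte mean in log2 units (vertical axis) from in vivo oocyte to blastocyst (horizontal axis), for the zona genes with TECTB and OIT3 (left) and for UCHL1, CD81, ITGB1, CD9 and FURIN (right); points are group means without error bars. TECTB steps down with the zona genes at the 8-cell stage and the morula, whereas CD9, CD81, ITGB1 and FURIN are higher in morulae than in 8-cell embryos.

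Of 8 transcription regulators of oocyte genes, 2 matched a named probe set. TCF3, an E protein that partners oocyte helix-loop-helix factors, fell 15.0-fold at the 8-cell stage, from 11.83 to 7.93 (adjusted p 8.91e-07). It had 2 probe sets, of which the one with the higher mean over all arrays was read. TCF12, a relative of TCF3, rose at least 3.74-fold in morulae, from 2.66 to 5.90 (adjusted p 2.59e-08).

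The oocyte-specific and maternal-effect genes moved with the zona genes at both steps. Of 7 tested, 6 fell and none rose at the 8-cell stage, with a median difference of -4.48, and 6 fell in morulae, with a median of -5.11. Over all tested probe sets 33.6% and 28.5% fell at these steps. At the 8-cell stage GDF9 fell 83.8-fold, MOS 30.1-fold, NLRP5 23.5-fold, BMP15 22.3-fold, KPNA7 16.5-fold and OOEP 10.6-fold. The ZP2 fall of 27.3-fold and the ZP4 fall of 13.8-fold lay within this range, and the ZP3 fall of 5.58-fold lay below it. GTSF1 passed at neither step.

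Markers of other cells were read at the same steps. Of 5 trophoblast markers, none rose at the 8-cell stage and 5 rose in morulae, where 27.0% of all tested probe sets rose. At the 8-cell stage, of the 13 tested cumulus and granulosa cell markers 5 fell and 2 rose, of 4 oviduct and uterine epithelium markers 1 rose, and of 3 blood and leukocyte markers 1 fell and 1 rose. Over all tested probe sets 33.6% fell and 29.8% rose. The fit without the 4 arrays leaves a lone 4-cell array, so no counts are given from it. The part of these markers in the zona results was not tested. Of 9 sperm markers, PRM1, PRM2, ACR, SPAM1 and ADAM2 were below 4 on all 23 arrays, and ODF2, TNP1, SPA17 and AKAP4 were tested. Of these 4, 3 were lower in in vitro than in in vivo oocytes, where 8.54% of all tested probe sets were called in either direction. At the 8-cell stage 1 rose, ODF2, a centrosomal protein also found in other cells.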

How the data were processed

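The submitters' processing notes name GCRMA 2.0.0, and the deposited values are log2 expression levels per probe set, on the scale the authors gave them. Background correction and summarisation settings are not given in the sources used here. The number of arrays limits the precision. Gene symbols came from GEO's platform annotation: of 24016 probe sets that are not controls, 13292 had 1 symbol, 86 several and 10638 none. The Entrez identifiers of all 3 members matched their symbols in the RefSeq gene table. A probe set was tested when it was over 4 on at least 2 arrays (14571). The fit in limma 3.58.1 (R 4.3.3) gave each of the 8 groups a mean, shared 1 spread over 23 arrays (15 residual degrees of freedom, eBayes with a trend) and adjusted p-values by Benjamini-Hochberg over all tested probe sets in each of 8 comparisons, at 0.05. Members were also compared by two-sided exact permutation over arrays. The steps were tested on simulated data. Genes named were the 3 members, the genes of fixed lists and, for each member, the 5 genes with the highest Pearson correlation. Where a listed gene had several probe sets, the one with the highest mean over all arrays was read. Its other probe sets are not reported. Members, lists and the window boundary were chosen with earlier results of these data known. Alternatives covered scaling, the filter, the moderation, the arrays in the fit, a replicate block and leaving out arrays.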

Additional observations from a re-analysis of the deposited data

How the results depend on the processing

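Each of 30 results was run under alternative settings, and 520 of the 528 runs kept the direction and the side of the threshold. Some runs could not change a value. Each member had 1 probe set, so averaging over probe sets left it as it was, and centring arrays cancels in within-array differences. The 8-cell falls kept their direction in all alternatives, at -5.44 to -4.05 for ZP2, -3.15 to -2.47 for ZP3 and -4.46 to -3.32 for ZP4. With each array left out in turn ZP3 ran from -2.61 to -2.35. Fits without a 4-cell array leave a lone array in that group, so only their sizes are given. ZP3 passed without the 4 arrays with other cells' markers, at -2.18 for in vitro against in vivo oocytes and -2.68 for zygotes. With each array left out, these ran from -2.18 to -0.24 and from -2.68 to -0.74. ZP2 in blastocysts against morulae (-0.88) passed with the spread of the 2 groups alone (adjusted p 0.0284). Uncalled values changed sign for ZP2 in vitro against in vivo (-0.068 with arrays centred on spike-in controls), ZP4 in vitro against in vivo (-0.52 to 0.10 with each array left out) and ZP2 in 4-cell against 2-cell embryos (-0.31 to 0.039 with each array left out); the cause was not tested. Setting values below 4 to 4 removes the morula to blastocyst difference of ZP2 and ZP4 by construction.

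Centring on 26 spike-in controls moved the median of all probe sets at the 8-cell stage from -0.03 to -0.70, and that of morula against 8-cell to 0.77. Replicate numbers were treated as not pairing the samples. Of 21 same-number pairs, 5 correlated over 0.1, with r from -0.38 to 0.49, the highest in 4-cell against 2-cell embryos. Both pairs of that comparison are among the 5 and share their r by construction, as each group has 2 arrays. Pairs of unlike number were not computed, so these values cannot show that the samples are unpaired. The replicate block gave -4.56, -2.47 (adjusted p 0.0112) and -3.70 for ZP2, ZP3 and ZP4 at the 8-cell stage and changed no call. Levels below background, 2 arrays in some groups and 1 probe set for each gene limit what these values can show.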

Other observations

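OVGP1, the oviductal glycoprotein known to bind the zona of eggs in the oviduct, was read on 1 of the marker lists. Its log2 values on 8-cell arrays 1 to 4 were 7.96, 3.63, 3.01 and 7.62, and on the 19 other arrays the highest value was 2.97. It was thus above background on arrays 1 and 4, those with the lower ZP2 and ZP4 values. In limma's test it was higher at the 8-cell than at the 4-cell stage (adjusted p 0.00563) and lower in morulae than at the 8-cell stage (adjusted p 0.00434). Without the 4 arrays with other cells' markers the first comparison rests on a lone 4-cell array, so it is given no call. The embryos of this stage were flushed from the oviduct, and whether the message came from oviduct cells was not tested.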
